A study of Mus musculus with 12 samples.

Results

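The genes described here were 10 mouse matrix metalloproteinases, Mmp2, Mmp3, Mmp9, Mmp10, Mmp11, Mmp12, Mmp13, Mmp14, Mmp19 and Mmp23, measured in embryonic fibroblasts that carried RASV12, a hairpin against p53, or both. They were found by pairing the accession of each array probe with its gene symbol, which gave 12 probes for the 10 genes among 21367 named genes. All 10 passed the filter on dim probes, as did 14441 named genes in all. Gene expression was profiled on 12 Agilent arrays of 1 colour, and the series title asks about tumor phenotypes of cells that were transformed with or without prior senescence.

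Embryonic fibroblasts are connective tissue cells in primary culture, here taken from C57BL/6 embryos at E12.5 to E13.5 and transduced with viral vectors. The shp53 cells carried a hairpin RNA that targets p53 transcripts, and the RASV12 cells carried an oncogenic form of RAS. The shp53-first cells received shp53 and then RASV12, and the RASV12-first cells received RASV12 and then shp53, so that both groups carried the same pair of vectors. Each group had 3 arrays, which the design text calls independent biological replicates. No group without a vector was measured, so every difference is between transduced groups and which of them moved cannot be told. The promoters of the vectors, the litters and the time between transduction and harvest are not given in the sources used here.

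Matrix metalloproteinases are zinc-dependent enzymes, made as inactive precursors, that cut collagens, proteoglycans and other proteins outside the cell and release growth factors and receptors from the cell surface. Tissue inhibitors of metalloproteinases (TIMPs) bind and block the active enzymes. Several metalloproteinase genes are textbook targets of RAS signalling through the transcription factors AP-1 and ETS, and stromelysins and collagenases are known members of the secretory phenotype of senescent fibroblasts.

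Levels are log2 signals relative to the 75th percentile of the array, so that 0 stands for that percentile, and they are compared between groups but not between probes. Differences are log2 differences of group means with the standard error (SE) from limma, a linear model fitted to all genes on all 12 arrays, with 3 arrays in each group. A difference is said to pass, or a gene to be called, where the limma p, adjusted by Benjamini-Hochberg over the 14441 genes of a comparison, is under 0.05. These p-values rest on the spread among the arrays of a group. In each group a pair of arrays lay closer than the third, with r across genes of 0.993 to 0.998, where the remaining pairs of a group had 0.967 to 0.981. The remaining arrays, replicate 2 of shp53 and of RASV12 and replicate 1 of both groups with 2 vectors, are said to stand apart, and a fit without them measures the spread within the close pairs alone.

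RASV12 cells had far higher signals than shp53 cells for both stromelysins, the collagenase Mmp13 and the gelatinase Mmp9. Mmp10 was 167-fold higher, Mmp13 54.3-fold, Mmp9 17.5-fold and Mmp3 16.9-fold higher. The membrane-bound Mmp14 and Mmp23 were lower, by 2.25-fold and 2.58-fold. Thus 4 of the 10 members were called higher and 2 lower, where 14.3% and 12.8% of all genes were called in those directions and 27.1% in either. The 2 groups did not overlap for 9 members, Mmp19 being the exception, against 51.2% of all genes. The median difference of the members was 1.1, beside 0.05 for all genes tested.

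Cells with both vectors also had high signals for Mmp3, Mmp9 and Mmp10 against shp53 cells, but not for Mmp13. In shp53-first cells Mmp9 was 241-fold higher, Mmp10 118-fold, Mmp3 51-fold and Mmp19 2.94-fold higher, while Mmp14, Mmp11 and Mmp23 were lower by 2.18-fold, 1.94-fold and 1.71-fold. These 4 members called higher and 3 called lower stand beside 17.3% and 20.3% of all genes, 37.6% in either direction. The groups did not overlap for 7 members (53.3% of all genes), and the median difference was 1.01 (0.03 for all genes). In RASV12-first cells Mmp10 was 174-fold higher, Mmp9 122-fold, Mmp3 39-fold and Mmp19 2.79-fold higher than in shp53 cells. Mmp12, whose probe passed the filter through the RASV12-first arrays alone, was at least 3.18-fold higher there. Mmp14 and Mmp11 were lower by 2.74-fold and 1.51-fold. That made 5 members called higher and 2 lower, where 21.7% and 23.8% of all genes were called, 45.5% in either direction. Of all genes 56.6% did not overlap between these groups, as did 9 members, and the median difference was 1.4 (0.02 for all genes). These comparisons share the 3 shp53 arrays and are no independent support for each other.

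Against RASV12 cells, the cells with both vectors had more Mmp9 and Mmp19 signal and less Mmp13 and Mmp11. In RASV12-first cells Mmp9 was 6.94-fold, Mmp23 2.77-fold and Mmp19 2.38-fold higher, and Mmp13 was 21.9-fold and Mmp11 1.78-fold lower. This gave 3 members called higher and 2 lower, beside 17.2% and 21.7% of all genes and 38.8% in either direction, and 6 members did not overlap (51.1% of all genes). In shp53-first cells Mmp9 was 13.7-fold, Mmp3 3.01-fold and Mmp19 2.5-fold higher, and Mmp13 was 39.8-fold and Mmp11 2.28-fold lower. Here too 3 were called higher and 2 lower, where 10.3% and 15.1% of all genes were called, 25.4% in either direction, and 6 members did not overlap (43.6% of all genes). The median difference of the members was 0.3 for RASV12-first cells (-0.07 for all genes) and 0.22 for shp53-first cells (-0.05 for all genes). Both comparisons use the same RASV12 arrays.

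The 2 orders were compared to see whether the vector that came first made a difference to these genes. Of the 10 members 0 were called by limma in RASV12-first against shp53-first cells, where 7.33% of all genes were called higher, 8.46% lower and 15.8% in either direction. The arrays of the 2 orders did not overlap for 2 members, Mmp9 and Mmp23, against 32.1% of all genes. Mmp9 read lower in RASV12-first cells by a log2 difference of -0.99 (95% interval -1.93 to -0.05, adjusted p = 0.153), and Mmp23 read higher by 0.87 (0.27 to 1.47, adjusted p = 0.0524). For Mmp13 the interval ran from -0.91 to 2.63 and for Mmp12 from -1.4 to 2.53, so differences of those sizes in either direction lie within the intervals. The narrowest interval was that of Mmp11, -0.09 to 0.81. With arrays scaled to their median, Mmp23 and Mmp11 passed, higher in RASV12-first cells by 1.12 and 0.61 (limma adjusted p = 0.00926 and 0.0468). Of all genes 19.8% passed with that scaling. Mmp23 also passed with a trended and robust spread (adjusted p = 0.0429) and without RASV12-first replicate 2 (0.0497), and Mmp11 without shp53-first replicate 1 (0.0305). In a fit of the 2 orders alone with the replicate number as a block, 1 member passed, Mmp9 (-0.99, limma adjusted p = 0.0243), where 17.3% of all genes did. Without the 4 arrays that stand apart 6 members passed, beside 48% of all genes.

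**Figure D1:**
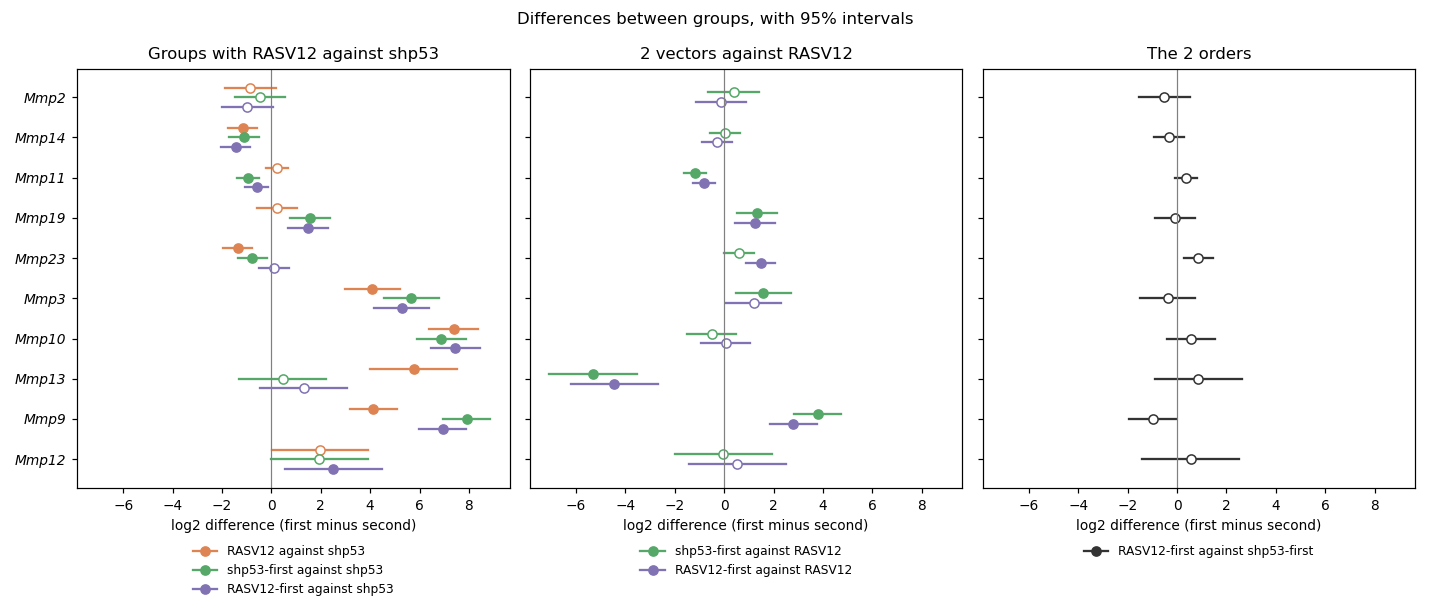
Log2 differences between groups for the 10 metalloproteinases (x axis; first group minus second), in 3 panels: groups with RASV12 against shp53, cells with 2 vectors against RASV12, and the 2 orders. Points are differences of group means with 95% intervals from limma and 3 arrays per group, filled where called at an adjusted p under 0.05. Mmp3, Mmp9 and Mmp10 lie from 4.08 to 7.91 above shp53 in the 3 groups with RASV12, Mmp13 does so only in RASV12 cells (5.76), and no point is filled for the 2 orders. Differences of Mmp12 against shp53 are fitted values from probes not well above background in shp53 cells.

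The design check was the target of the hairpin. Trp53 read -0.75 to -0.35 in RASV12 cells, and in the 3 groups with the hairpin it read from -4.14 to -3.06, so that no array with the hairpin overlapped one without. Between 56.6% and 62.4% of spots were well above background on an array. All 10 fibroblast markers examined were well above background on all arrays, whereas the epithelial markers Epcam and Cdh1 and the endothelial markers Tek and Tie1 were so on 0 arrays. Of 8 epithelial markers, 2 to 5 were well above background on shp53 arrays, 2 to 3 on RASV12 and shp53-first arrays and 2 on RASV12-first arrays, among them Krt18 and Esrp1 on all 12. Their signals, summed with the 75th percentile of the array as 1, came to 0.731 to 0.971, 6.98 to 7.48, 1.59 to 11.3 and 1.77 to 9.71 in these groups, and the keratin gene Krt18 was higher in RASV12 than in shp53 cells (3.24 ± 0.80, limma adjusted p = 0.0125). Of 6 endothelial markers, 2 to 3 were well above background on an array, Pecam1 and Kdr on all 12, with sums of 3 to 4.55, 1.74 to 3.61, 1.02 to 2.44 and 1.12 to 1.92 in the same order of groups. Cdh5 was so on all RASV12 and RASV12-first arrays and on 0 others, and was at least 3.57-fold higher in RASV12 than in shp53 cells (limma adjusted p = 0.00274). Its probe passed the filter through those groups alone, so a higher value there is no independent support. Macrophage markers were unequal between groups. Of 12 examined, 12 were well above background on every shp53 array, 9 to 10 on RASV12 arrays, 4 to 6 on shp53-first arrays and 4 to 5 on RASV12-first arrays. Their signals, summed the same way, came to 97.4, 12 and 98 on shp53 replicates 1, 2 and 3, to 9.54 to 20.9 in RASV12 cells, to 8.96 to 12.4 in shp53-first cells and to 6 to 9.1 in RASV12-first cells. Cx3cr1 and Ptprc were not well above background on any array with RASV12, whereas Csf1r, Cd68, Itgam and Cd14 were so on all of them. In RASV12 against shp53 cells Itgam (0.30 ± 0.35) and Cd14 (-0.95 ± 0.74) were not called (SE, limma adjusted p = 0.572 and 0.377). In these bulk samples fewer cells of a type and less RNA per cell cannot be told apart, and the part of these 3 kinds of markers in the metalloproteinase values was not tested.

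Mmp3 encodes stromelysin-1, which cuts proteoglycans, laminin and fibronectin and activates the precursors of collagenases and of Mmp9. Its log2 level was 2.67, 0.67 and 2.64 on the shp53 arrays (replicates 1, 2 and 3), 6.02, 6.17 and 6.03 on the RASV12 arrays, 8.04, 7.19 and 7.75 on the shp53-first arrays and 7.96, 6.85 and 7.03 on the RASV12-first arrays. All arrays with RASV12 were above all shp53 arrays, and all arrays with both vectors were above all RASV12 arrays, while the 2 orders overlapped. The shp53 group held the widest spread, 1.99 ± 1.15 (SD, n = 3), because its replicate 2 read lowest. Against shp53 the log2 difference was 4.08 ± 0.50 (SE) in RASV12, 5.67 ± 0.50 in shp53-first and 5.29 ± 0.50 in RASV12-first cells (limma adjusted p = 2.36e-04, 2.05e-05 and 2.14e-05). The step from RASV12 to cells with both vectors was smaller. It was 1.59 ± 0.50 in shp53-first cells (limma adjusted p = 0.0409), which did not pass when any 1 of the 6 arrays of these groups was left out (adjusted p from 0.056 to 0.107), and 1.2 ± 0.50 in RASV12-first cells (0.0812), which passed under 5 alternatives, among them quantile scaling (0.04).

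Mmp10 encodes stromelysin-2, a close relative of Mmp3 with a similar range of substrates. On the shp53 arrays it read -3.32, -3.98 and -3.44, on the RASV12 arrays 3.88, 3.63 and 3.90, on the shp53-first arrays 4.39, 2.79 and 2.73 and on the RASV12-first arrays 4.61, 3.47 and 3.51. The 3 groups with RASV12 overlapped each other and lay far above the shp53 group. The log2 difference to shp53 cells was 7.38 ± 0.44 in RASV12, 6.88 ± 0.44 in shp53-first and 7.44 ± 0.44 in RASV12-first cells (SE; limma adjusted p = 3.65e-06, 2.98e-06 and 8.11e-07), and ranked 14, 17 and 6 from the highest of 14441 genes. With normexp these differences were 5.08, 4.38 and 4.43 and still passed (limma adjusted p at most 0.00455). Between the groups with RASV12 no difference passed, at 0.06 ± 0.44 for RASV12-first and -0.50 ± 0.44 for shp53-first against RASV12 cells (limma adjusted p = 0.925 and 0.451). Without shp53-first replicate 1 the latter was -1.04 and passed (adjusted p = 0.0468). Mmp3 and Mmp10 are paralogs of similar sequence, and whether their probes share signal was not tested.

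Mmp13 encodes collagenase-3, the main collagenase of rodents for fibrillar collagen. It stood apart from the stromelysins in its pattern. The RASV12 arrays read 4.79, 4.68 and 4.83, whereas the shp53 arrays read -0.53, -2 and -0.45, the shp53-first arrays 1.33, -1.67 and -1.30, and the RASV12-first arrays 1.67, -0.29 and -0.44. Every RASV12 array lay above every other array. The shp53-first arrays overlapped those of shp53 and of RASV12-first cells. The latter groups just failed to overlap, with -0.45 the highest shp53 and -0.44 the lowest RASV12-first value. The log2 difference of RASV12 to shp53 cells was 5.76 ± 0.80, with 4.77 ± 0.08 against -0.99 ± 0.87 as means (SD, n = 3; limma adjusted p = 4.9e-04). Against RASV12 cells it was lower in both groups with 2 vectors, by -5.32 ± 0.80 in shp53-first (adjusted p = 0.0013) and -4.45 ± 0.80 in RASV12-first cells (adjusted p = 0.00174). With shp53 cells as the reference neither passed, at 0.45 ± 0.80 and 1.31 ± 0.80 (limma adjusted p = 0.683 and 0.202). Without the array of each group that stands apart, the difference of shp53-first to shp53 cells turned to -0.99 and passed (adjusted p = 7.07e-04), and with the closest arrays averaged the drops against RASV12 cells did not pass (0.0771 and 0.0619).

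**Figure D2:**
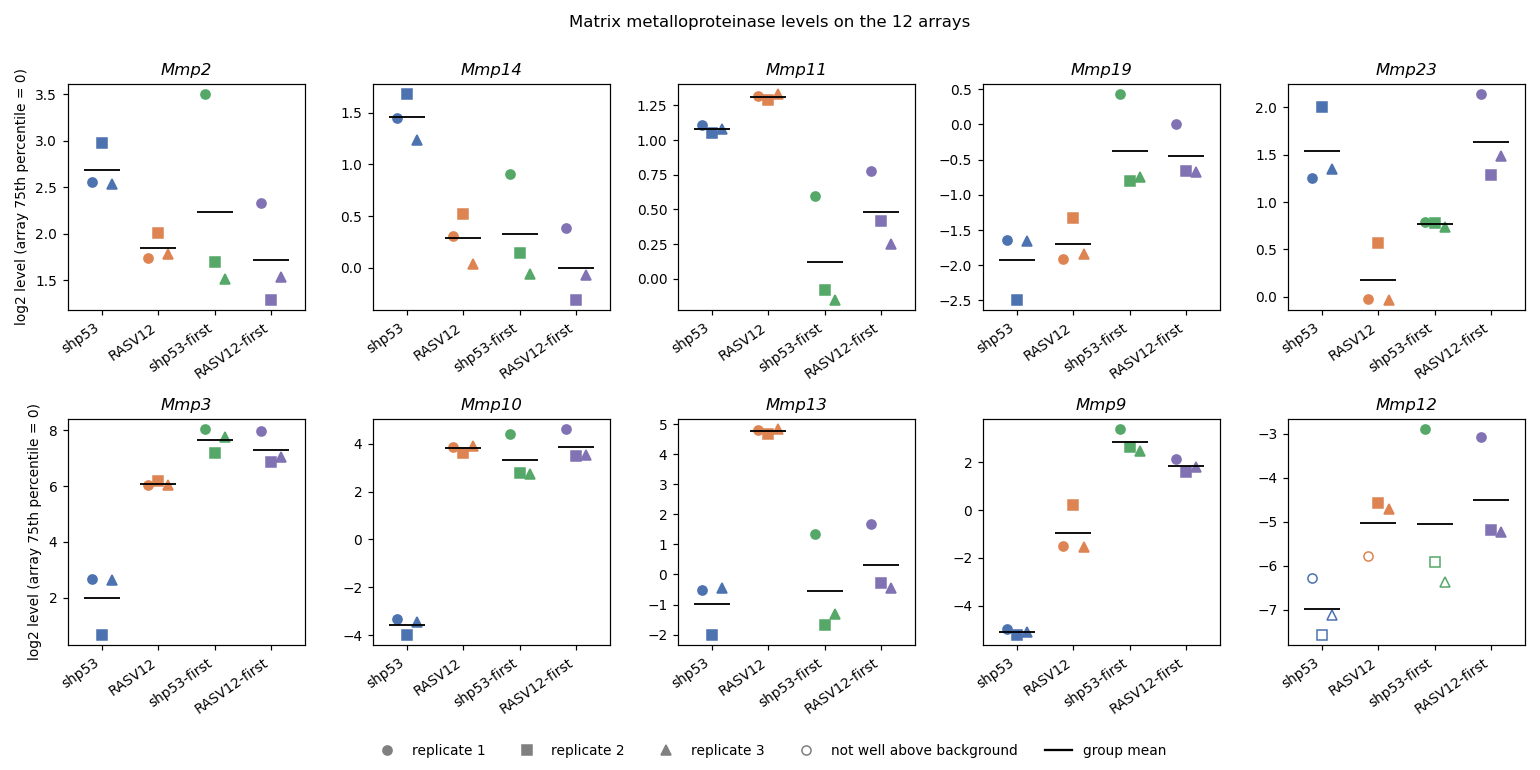
Log2 level of each metalloproteinase (y axis; 0 is the 75th percentile of the array) on the 12 arrays by group, with a bar at the group mean and the replicate number by symbol. Open symbols are arrays on which the probe was not well above background, which occurred for Mmp12 alone. Each panel has its own axis. Mmp13 is high only on the RASV12 arrays (4.68 to 4.83), Mmp9 steps up from shp53 through RASV12 to the cells with both vectors, and replicate 1 (circle) is the highest array of both groups with 2 vectors in every panel.

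The promoters of the 3 genes of these paragraphs are shown because they are the members with the highest signals in RASV12 against shp53 cells that have an entry in the RefSeq table of promoters, together with that of Mmp14, which was lower. Each run is the 250 bases before the annotated start, 5′ to 3′ on the strand of the gene in build GRCm38.p6, with a match to the AP-1 motif TGANTCA in capitals. Mmp3 lies at chr9:7445572-7445821 on the plus strand, Mmp10 at chr9:7502092-7502341 (plus), Mmp13 at chr9:7272264-7272513 (plus) and Mmp14 at chr14:54431348-54431597 (plus).
Mmp3: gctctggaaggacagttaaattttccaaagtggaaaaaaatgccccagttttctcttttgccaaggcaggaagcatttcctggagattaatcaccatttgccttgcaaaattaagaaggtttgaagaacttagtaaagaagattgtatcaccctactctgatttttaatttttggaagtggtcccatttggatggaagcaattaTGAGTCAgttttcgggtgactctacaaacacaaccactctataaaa
Mmp10: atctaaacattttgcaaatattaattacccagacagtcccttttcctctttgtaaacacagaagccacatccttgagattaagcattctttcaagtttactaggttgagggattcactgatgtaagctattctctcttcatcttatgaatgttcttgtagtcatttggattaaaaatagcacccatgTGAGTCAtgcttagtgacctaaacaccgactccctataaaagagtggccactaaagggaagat
Mmp13: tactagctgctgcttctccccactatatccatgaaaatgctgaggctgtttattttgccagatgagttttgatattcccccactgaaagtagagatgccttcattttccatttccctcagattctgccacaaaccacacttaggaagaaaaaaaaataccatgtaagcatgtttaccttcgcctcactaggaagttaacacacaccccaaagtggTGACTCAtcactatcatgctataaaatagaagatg
Mmp14: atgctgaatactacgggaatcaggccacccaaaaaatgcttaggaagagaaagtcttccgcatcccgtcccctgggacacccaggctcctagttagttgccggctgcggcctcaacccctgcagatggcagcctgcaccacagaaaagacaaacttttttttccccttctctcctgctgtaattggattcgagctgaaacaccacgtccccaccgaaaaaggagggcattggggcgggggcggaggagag

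The AP-1 motif, bound by dimers of FOS and JUN proteins, was found on either strand in 6.75% of 32851 promoters of the same length (2217). Promoters of 7 members were in the table, and those of Mmp2, Mmp9 and Mmp19 were not matched. The motif lay at positions -46 to -40 from the start of Mmp3, -63 to -57 of Mmp10 and -35 to -29 of Mmp13, and upstream of the second of the annotated starts of Mmp12 (-44 to -38). No match was in these windows of Mmp11, Mmp14 or Mmp23. A TATA box (TATAAA; 12.4% of promoters) lay in the windows of Mmp3, Mmp10 and Mmp13, and a RUNX motif (ACCACA; 14% of promoters) in those of Mmp13, Mmp14 and the first start of Mmp23. ETS motifs (CAGGAA; 25.7% of promoters) lay upstream of Mmp3, with 2 matches, and of the second start of Mmp23. In the promoters printed, none of the AP-1 matches shared a base with another motif. In mouse, Mmp3, Mmp10, Mmp12 and Mmp13 are neighbours on chromosome 9, so these promoters come from related genes of 1 cluster. A match is a description of letters, and binding was not measured.

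**Figure D3:**
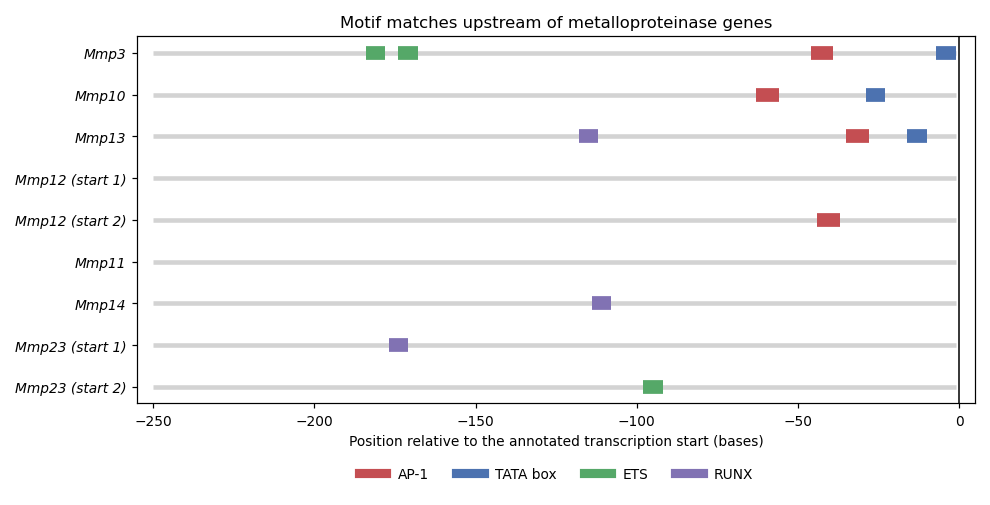
Positions of motif matches in the 250 bases upstream of the annotated start (x axis, bases; 0 is the start) for the members found in the promoter table, 1 line per start. Red marks AP-1, blue the TATA box, green ETS and purple RUNX matches on either strand. AP-1 and TATA matches stand together within 63 bases of the start in Mmp3, Mmp10 and Mmp13.

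Mmp9 encodes gelatinase B, which cuts denatured collagen and the collagen of basement membranes. Its signal on the shp53 arrays was -4.97, -5.20 and -5.08, on the RASV12 arrays -1.52, 0.20 and -1.53, on the shp53-first arrays 3.38, 2.63 and 2.48 and on the RASV12-first arrays 2.15, 1.60 and 1.78. The 4 groups did not overlap, in the order shp53, RASV12, RASV12-first and shp53-first. RASV12 replicate 2 was the highest array of its group, whose spread was 0.99 (SD, n = 3). Each step but that between the 2 orders passed. The log2 difference was 4.13 ± 0.42 (SE) for RASV12 against shp53 cells (limma adjusted p = 7.61e-05), and 7.91 ± 0.42 and 6.93 ± 0.42 for shp53-first and RASV12-first against shp53 cells (9.97e-07 and 9.68e-07), the first of which ranked 8 from the highest of all genes. Against RASV12 cells it was 3.78 ± 0.42 in shp53-first and 2.80 ± 0.42 in RASV12-first cells (limma adjusted p = 2.49e-04 and 6.6e-04). With normexp, another background correction, the difference of RASV12 to shp53 cells was 0.79 and did not pass (adjusted p = 0.342), and that of RASV12-first to RASV12 cells was 2.06 (0.0584). The differences of shp53-first and RASV12-first to shp53 cells stayed called with normexp but were smaller, at 4.17 and 2.85 (limma adjusted p = 0.0039 and 0.0256).

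Mmp2, gelatinase A, is made by most fibroblasts and is activated at the cell surface by Mmp14. It read 2.56, 2.97 and 2.53 in shp53 cells, 1.74, 2.01 and 1.78 in RASV12 cells, 3.50, 1.69 and 1.51 in shp53-first cells and 2.33, 1.29 and 1.53 in RASV12-first cells. The shp53 arrays lay above all others except shp53-first replicate 1, the highest of the 12. No comparison passed. The differences to shp53 cells were -0.85 ± 0.46 in RASV12, -0.46 ± 0.46 in shp53-first and -0.97 ± 0.46 in RASV12-first cells (SE; limma adjusted p = 0.21, 0.463 and 0.111). Leaving out shp53-first replicate 1 gave -1.09 for that group, which passed (adjusted p = 0.0144), and fits of 2 groups at a time gave passing values for RASV12 and RASV12-first cells (0.0115 and 0.0454).

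Mmp14 encodes a membrane-type metalloproteinase that cuts collagen at the cell surface and, with Timp2, activates Mmp2. The shp53 arrays read 1.45, 1.68 and 1.24, above every other array. The RASV12 arrays read 0.31, 0.52 and 0.04, the shp53-first arrays 0.91, 0.14 and -0.06 and the RASV12-first arrays 0.38, -0.31 and -0.07, and these 3 groups overlapped. The log2 difference to shp53 cells was -1.17 ± 0.27 in RASV12, -1.13 ± 0.27 in shp53-first and -1.45 ± 0.27 in RASV12-first cells (SE; limma adjusted p = 0.00943, 0.00881 and 0.00164). None of the differences among the groups with RASV12 passed, the largest being -0.33 ± 0.27 between the orders (adjusted p = 0.481). With normexp none of the 3 drops passed (adjusted p = 0.127, 0.181 and 0.0583), and with the closest arrays averaged that of RASV12-first cells alone passed.

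Mmp23 encodes a membrane-anchored enzyme that is released by cleavage in the secretory pathway. It read 1.26, 2.01 and 1.35 in shp53 cells, -0.02, 0.57 and -0.03 in RASV12 cells, 0.79, 0.78 and 0.74 in shp53-first cells and 2.14, 1.29 and 1.49 in RASV12-first cells. RASV12 arrays were the lowest and did not overlap the others, while RASV12-first and shp53 arrays overlapped. RASV12 cells were lower than shp53 cells by -1.37 ± 0.27 (limma adjusted p = 0.00384), and RASV12-first cells were higher than RASV12 cells by 1.47 ± 0.27 (0.00197). In shp53-first against shp53 cells the difference was -0.77 ± 0.27 (limma adjusted p = 0.0449). It did not pass when any 1 of the 6 arrays was left out (adjusted p from 0.0514 to 0.14). All 3 of these calls ended with normexp (adjusted p from 0.105 to 0.413) and with the closest arrays averaged (0.057 to 0.193). The values of RASV12-first against shp53 (0.10 ± 0.27) and shp53-first against RASV12 cells (0.60 ± 0.27) did not pass (limma adjusted p = 0.783 and 0.131). Against RASV12 cells Mmp23 was thus called in RASV12-first cells and not in shp53-first cells, and the test between those orders had an adjusted p of 0.0524.

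Mmp11 encodes stromelysin-3, which is activated inside the cell by furin. Its levels were 1.11, 1.05 and 1.08 in shp53 cells and 1.32, 1.29 and 1.33 in RASV12 cells, with an SD of 0.03 and 0.02 (n = 3 each). They were 0.60, -0.08 and -0.15 in shp53-first and 0.78, 0.42 and 0.25 in RASV12-first cells. All arrays with both vectors lay below all arrays with a single vector. Against RASV12 cells the difference was -1.19 ± 0.20 in shp53-first and -0.83 ± 0.20 in RASV12-first cells, and against shp53 cells -0.96 ± 0.20 in shp53-first cells (SE; limma adjusted p = 0.00252, 0.00899 and 0.00443). RASV12-first against shp53 cells gave -0.60 ± 0.20 (limma adjusted p = 0.0339), which did not pass without any of the 3 shp53 arrays or without RASV12-first replicate 2 or 3 (adjusted p up to 0.12). It also did not pass with arrays scaled to their median (-0.26, adjusted p = 0.274). All 4 calls ended with normexp (adjusted p from 0.0814 to 0.569) and with the closest arrays averaged (0.127 to 0.276). A dimmer second probe of Mmp11 read the same way in all 6 comparisons, at -0.18 in RASV12-first against shp53 cells (adjusted p = 0.393). RASV12 and shp53 cells differed by 0.23 ± 0.20 without passing (limma adjusted p = 0.433).

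Mmp19 is expressed in many tissues and cuts components of basement membranes. It read -1.64, -2.49 and -1.66 in shp53 cells and -1.91, -1.33 and -1.84 in RASV12 cells, against 0.43, -0.80 and -0.74 in shp53-first and 0.00, -0.66 and -0.68 in RASV12-first cells. Every array with both vectors lay above every array with a single vector, the mirror of Mmp11. The log2 difference to shp53 cells was 1.56 ± 0.37 in shp53-first and 1.48 ± 0.37 in RASV12-first cells (SE; limma adjusted p = 0.00794 and 0.00803). Against RASV12 cells it was 1.32 ± 0.37 and 1.25 ± 0.37 (limma adjusted p = 0.0248 and 0.0217). The first of these did not pass without RASV12 replicate 1 (adjusted p = 0.0864) or 3 (0.0829) or shp53-first replicate 1 (0.0567), and the second not without RASV12 replicate 1 (0.0733) or 3 (0.0676) or RASV12-first replicate 1 (0.0631). All 4 calls ended with normexp (adjusted p from 0.0706 to 0.301) and with the closest arrays averaged (0.0639 to 0.197).

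Mmp12, the macrophage elastase, was near the limit of detection. Its probe was well above background on 0 shp53 arrays (-6.29, -7.57 and -7.13), on RASV12 replicates 2 and 3 (-4.57 and -4.72, with replicate 1 at -5.79), on shp53-first replicate 1 (-2.90, with -5.91 and -6.37 on the others) and on all RASV12-first arrays (-3.07, -5.19 and -5.24). Against shp53 cells the fitted log2 difference was 1.97 ± 0.88 in RASV12 and 1.93 ± 0.88 in shp53-first cells (SE). Both sides held arrays not well above background, so no bound on a fold is given. Neither passed (limma adjusted p = 0.129 and 0.111), except for RASV12 in a fit of those 2 groups (0.0202) and without the arrays that stand apart (0.0229). RASV12-first cells were at least 3.18-fold higher than shp53 cells, with means of -4.50 ± 1.24 and -7.00 ± 0.65 (SD, n = 3, limma adjusted p = 0.0408). The probe passed the filter through the RASV12-first arrays alone, so a higher value there is no independent support. That value did not pass when any 1 of the 6 arrays was left out (adjusted p from 0.0503 to 0.127), nor with normexp (1). A second probe was not well above background on any array.

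In the groups with 2 vectors the members shared the array on which they read highest. Replicate 1 of both groups with 2 vectors was the highest array of its group for 10 of the 10 members. Among all genes with no ties it was highest in both groups for 31.5% (4533 of 14380), and for 42% in shp53-first and 51.3% in RASV12-first cells alone. These are the arrays of their groups that lay outside the close pairs. In shp53-first cells replicate 1 read above the higher of replicates 2 and 3 by most for Mmp12 and Mmp13 and by least for Mmp23. In the groups with a single vector, the members divided. RASV12 replicate 2 was highest for 7 members (39.7% of genes) and lowest for Mmp10, Mmp11 and Mmp13 (46.9% of genes). The shp53 replicate 2 was lowest for 7 (39.5% of genes), among them Mmp3, Mmp10 and Mmp13, and highest for Mmp2, Mmp14 and Mmp23 (50% of genes). That shp53 array also had the lowest sum of macrophage markers of its group (12). With the 4 arrays that stand apart left out, 10 members were called in RASV12 against shp53 cells, where 58.5% of all genes were. What distinguishes these arrays is not given in the sources used here.

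Across the 12 arrays the patterns of the members fell in a few kinds, given as a description because the arrays share their groups. Pearson's r was 0.95 between Mmp3 and Mmp9, 0.94 between Mmp3 and Mmp10 and 0.84 between Mmp2 and Mmp14, but 0.05 between Mmp9 and Mmp13. Likeness was searched among tested genes other than the 10 members, without genes that had a missing value or a clone or predicted-gene name. Most like Mmp10 were Rnf24 (0.99) and Fam78b (0.988). Most like Mmp3 were Sox7 (0.987), a transcription factor, and the glutamate receptor gene Grm8 (0.986). Mmp9 was most like Prtg (0.988) and Phtf1os (0.985). Mmp13 was most like St6galnac6 (0.973), a sialyltransferase, and Maff (0.964), a small MAF transcription factor. For Mmp19 the most similar were Rnf114 (0.98) and Il1r1 (0.977), the receptor of interleukin 1, for Mmp11 Atp9a (0.983) and Pcyox1 (0.97), for Mmp14 Irs1 (0.968) and C1ql3 (0.965), for Mmp23 Pxdn (0.967) and Zfp251 (0.957), for Mmp2 Sdf4 (0.95) and Matk (0.94), and for Mmp12 Cpne7 (0.958) and Iglon5 (0.943).

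Of 13 further metalloproteinases listed, 12 had a probe and 4 passed the filter. Mmp1a and Mmp1b, the rodent counterparts of interstitial collagenase, also had higher signals in the 3 groups with RASV12 than in shp53 cells. Mmp1a was not well above background on any shp53 array and read -2.15, -0.24 and -2.01 in RASV12, 0.96, -1.63 and -1.55 in shp53-first and 0.80, -1.38 and -1.16 in RASV12-first cells. It was at least 26.1-fold, at least 43-fold and at least 48.3-fold higher than in shp53 cells (limma adjusted p = 2.31e-04, 8.17e-05 and 4.83e-05). The probe of Mmp1a passed the filter through groups with RASV12 alone. Mmp1b was higher by 4.71 ± 0.66, 5.16 ± 0.66 and 6.19 ± 0.66 on the log2 scale (SE; limma adjusted p = 5.17e-04, 2.14e-04 and 4.5e-05). It was well above background on 2 of the 3 shp53 arrays, so its probe too passed the filter through groups with RASV12 alone. The higher values of Mmp1a and Mmp1b there are no independent support. The sequence of Mmp1b is close to that of Mmp1a, and shared signal was not tested. Both have an AP-1 match upstream, at -73 to -67 and -93 to -87. So do Mmp7 (-63 to -57) and Mmp20 (-95 to -89), which were not well above background on any array.

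Mmp8, the neutrophil collagenase, had its highest signal in RASV12 cells, as did Mmp13, which was well above background on every array. It read -4.56, -4.18 and -4.28 on the RASV12 arrays and was not well above background on any of the other 9 arrays. RASV12 cells were at least 3.56-fold higher than shp53 cells, at least 3.07-fold higher than shp53-first and at least 3.14-fold higher than RASV12-first cells (limma adjusted p = 9.83e-04, 0.00534 and 0.00175). The probe of Mmp8 passed the filter through the RASV12 arrays alone, so these differences are no independent support for its pattern. Mmp17, a membrane-type enzyme, was lower than in shp53 cells by -1.43 ± 0.21 in RASV12, -2.11 ± 0.21 in shp53-first and -2.02 ± 0.21 in RASV12-first cells (SE; limma adjusted p = 7e-04, 4.45e-05 and 3.97e-05). Mmp7, Mmp20, Mmp25 and Mmp28 were well above background on 0 arrays.

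Inhibitors of metalloproteinases were called lower or not at all. Of 6 listed, 5 were tested, and Timp3, which is bound to the matrix, had the largest drop. It read 6.98, 5.19 and 6.81 in shp53 cells, 2.89, 2.91 and 2.80 in RASV12, 1.99, 2.33 and 2.20 in shp53-first and 2.68, 2.31 and 2.19 in RASV12-first cells. No array with RASV12 reached the lowest shp53 array, and the differences were -3.46 ± 0.38, -4.15 ± 0.38 and -3.93 ± 0.38 (SE; limma adjusted p = 1.3e-04, 2.75e-05 and 2.6e-05). Timp3 was the 1 inhibitor called in RASV12 against shp53 cells. Reck, a membrane-anchored inhibitor, was also lower in shp53-first (-1.05 ± 0.36, limma adjusted p = 0.0449) and RASV12-first cells (-1.50 ± 0.36, 0.00732). Its difference in RASV12 against shp53 cells was similar to that of shp53-first cells but did not pass (-1.08 ± 0.36, limma adjusted p = 0.0512). In RASV12-first cells all of Timp1, Timp2, Timp3 and Reck were called lower than in shp53 cells. Against RASV12 cells, Timp1 and Timp2 were lower in RASV12-first cells by -1.46 ± 0.31 and -1.33 ± 0.25 (SE; limma adjusted p = 0.00456 and 0.00241), and Timp2 in shp53-first cells by -0.86 ± 0.25 (0.0309). Between the orders 0 of 5 passed. Thus 1, 2 and 4 of the 5 were called lower than in shp53 cells in RASV12, shp53-first and RASV12-first cells, where 12.8%, 20.3% and 23.8% of all genes were. The median of the 5 was 0.14, -0.65 and -1.11 in RASV12, shp53-first and RASV12-first against shp53 cells, beside 0.05, 0.03 and 0.02 for all genes.

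**Figure D4:**
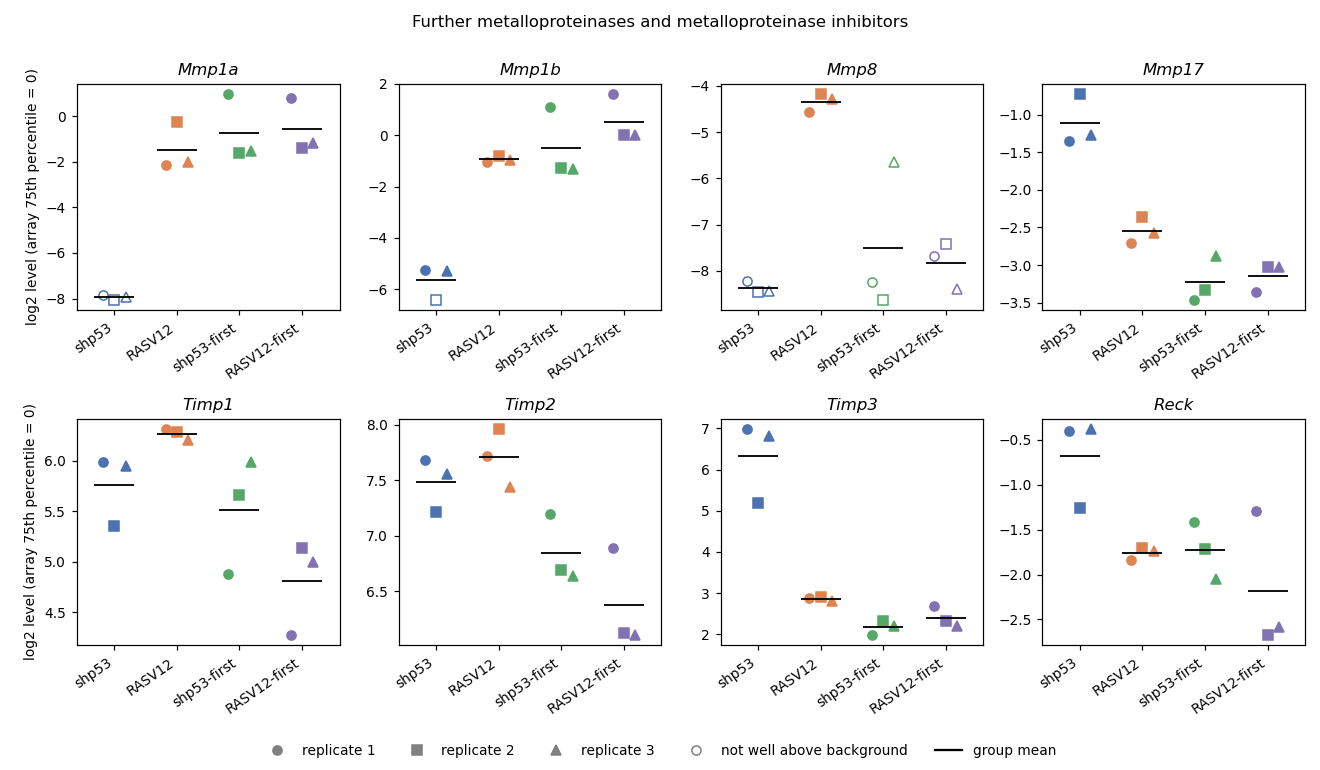
Log2 level (y axis; 0 is the 75th percentile of the array) of 4 further metalloproteinases and 4 inhibitors on the 12 arrays by group, with a bar at the group mean. Open symbols are arrays on which the probe was not well above background. Mmp8 is filled only on the RASV12 arrays (-4.56 to -4.18), and Timp3 lies between 1.99 and 2.91 on all 9 arrays with RASV12, against 5.19 to 6.98 on the shp53 arrays.

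Activators were mixed. Of 6 tested, 3 were called higher and 2 lower in RASV12 against shp53 cells, where 14.3% and 12.8% of all genes were. In RASV12-first against RASV12 cells 1 was called higher and 4 lower, beside 17.2% and 21.7% of all genes. Plau, the urokinase that generates plasmin, a protease able to activate metalloproteinase precursors, read -1.54, -0.90 and -1.55 in shp53, 1.46, 1.67 and 1.58 in RASV12, -0.58, -0.30 and -0.57 in shp53-first and 0.41, 0.17 and 0.09 in RASV12-first cells. The 4 groups did not overlap, with RASV12 highest as for Mmp13. The log2 difference to shp53 cells was 2.90 ± 0.19, 0.84 ± 0.19 and 1.55 ± 0.19 in RASV12, shp53-first and RASV12-first cells (SE; limma adjusted p = 5.02e-06, 0.00587 and 1.08e-04), and it was higher in RASV12-first than in shp53-first cells by 0.71 ± 0.19 (0.0285). Its receptor Plaur was higher in RASV12 than in shp53 cells (1.69 ± 0.28, limma adjusted p = 0.00134). Plat, another gene of the list, went the other way there (-1.42 ± 0.21, limma adjusted p = 8.24e-04). Between the orders Plat was higher in RASV12-first cells by 1.83 ± 0.21 (limma adjusted p = 2.85e-04). Pcsk6, a furin-like convertase, was lower in all groups with RASV12 than in shp53 cells, by -5.64 ± 0.52 in RASV12 and -5.97 ± 0.52 in shp53-first cells (limma adjusted p = 4.18e-05 and 2.02e-05). It was at least 360-fold lower in RASV12-first cells (4.08e-07), where it was not well above background. Between the orders Pcsk6 was at least 5.76-fold lower in RASV12-first cells (limma adjusted p = 0.00113).

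Of 14 AP-1 and ETS factors and Runx2 listed, 14 were tested, and 6, 9 and 9 were called higher than in shp53 cells in RASV12, shp53-first and RASV12-first cells, with 1, 2 and 2 lower and medians of 0.44, 0.86 and 1.17. Of all genes 14.3%, 17.3% and 21.7% were called higher in these comparisons and 12.8%, 20.3% and 23.8% lower. Fosl1, which encodes the AP-1 subunit FRA1, was higher by 3.21 ± 0.22, 3.25 ± 0.22 and 3.33 ± 0.22 (SE; limma adjusted p = 6.27e-06, 3.61e-06 and 1.47e-06). Etv4, an ETS factor of the PEA3 group, was higher by 1.86 ± 0.19, 1.75 ± 0.19 and 2.76 ± 0.19 (limma adjusted p = 6.52e-05, 6.77e-05 and 1.96e-06). Fos, another AP-1 subunit, was among those called lower in each of the 3. Between the orders, Etv4 was higher in RASV12-first cells (1.02 ± 0.19, limma adjusted p = 0.00446) and Ets2, a further ETS factor, was lower (-1.71 ± 0.18, 1.44e-04), while no metalloproteinase passed.

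Matrix proteins that metalloproteinases cut were mostly lower in the groups with RASV12. Of 16 tested, 11, 11 and 10 were called lower than in shp53 cells in RASV12, shp53-first and RASV12-first cells and 3, 1 and 1 higher, with medians of -1.79, -1.52 and -1.97 beside those near 0 of all genes. The same 12.8%, 20.3% and 23.8% of all genes were called lower and 14.3%, 17.3% and 21.7% higher. Elastin (Eln) was lower by -5.13 ± 0.43, -4.73 ± 0.43 and -4.82 ± 0.43, and the basement membrane collagen gene Col4a1 by -2.13 ± 0.18, -1.83 ± 0.18 and -2.12 ± 0.18 (SE; limma adjusted p at most 4.04e-05). Lamb1, a laminin chain, was among the genes called higher in all 3. Osteochondral markers were examined because Mmp13 is a cartilage and bone enzyme. Of 6 tested, 0 were called higher and 1 lower in RASV12 against shp53 cells, the lower being Col10a1, the collagen of hypertrophic cartilage (-5.21 ± 0.50, limma adjusted p = 4.94e-05). Of 10 fibroblast markers, 4 were called lower and 0 higher in that comparison, in which 12.8% of all genes were called lower and 14.3% higher. Of 12 macrophage markers 10 were called lower in each group with RASV12 against shp53 cells, where 12.8%, 20.3% and 23.8% of all genes were. Among these markers Cx3cr1, Ptprc and Aif1 passed the filter through the shp53 arrays alone, so their lower values elsewhere are no independent support.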

How the data were processed

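RNA of 12 samples, 3 in each of 4 groups, was measured on 1-colour Agilent arrays. The authors deposited Feature Extraction's processed signal as an intensity per spot, background-subtracted but, per the file headers, not scaled between arrays, and median pixel intensities of spot and local background. The deposited files also hold other values of 0 or 1 that flag spots as above background, non-uniform or outlying. Log2 values of 25916 probes that the authors deposited as a series-wide table had r of 0.99 to 0.9998 with the values rebuilt here, and they served as an alternative. The file headers give Feature Extraction 11.5.1.1 and the submitters' processing notes 10.7.3.1.

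The log2 processed signal less the 75th percentile of the array, over spots that are not controls, was averaged over the spots of a probe. Of the spot values 1717 (0.333%) carried a non-uniformity or outlier flag and were dropped, with no saturated spot (0). A probe was kept where some group had it well above background on its 3 arrays (23896 of 39429), and the brightest kept probe stood for a gene. Symbols came from a RefSeq table, which named 28330 probes and left 11099 without a name. limma 3.58.1 in R 4.3.3 fitted 1 mean per group to all 12 arrays, with empirical Bayes moderation and Benjamini-Hochberg adjustment over 14441 genes in each of 6 comparisons. Files were read with data.table (version 1.17.8), and the fit was tested on simulated data. With 3 arrays against 3, their number limits the precision. Where a group had no array well above background and the other group had all 3, a fold is a bound against the lowest signal that was.

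The members and gene lists were chosen with earlier results of these data known. Every member is described, with up to 4 genes of each list with the smallest adjusted p, the further family members by detection, and the 2 tested genes most like each member by Pearson's r. The members, genes with a missing value and genes with a clone or predicted-gene name were left out of that search. Lists are described by counts and medians, and genes named beyond these rules were chosen after their values were seen. Alternatives were normexp (offset 50), quantile and median scaling, other filters, the mean of a gene's probes, a spread estimate that was trended and robust, 2-group fits, a block for the replicate number (slide and scan bear the same numbers), the authors' log2 values, the closest arrays averaged, the arrays that stand apart dropped, and each array dropped in turn. Chosen after seeing the data were normexp with 77 local backgrounds over 5 times the median of the array replaced by that median, and a fit of the 2 orders alone with the replicate number as a block. The labels give the number alone and do not say that it marks a shared batch. Deviations from the group mean correlated between same-numbered arrays of the 2 orders in every pair (r = 0.6, 0.45 and 0.32), so their arrays were treated as paired in that fit, although shp53-first replicates 2 and 3 correlated more with the other number (0.49 and 0.42). In the other comparisons the pairs did not all correlate.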

Additional observations from a re-analysis of the deposited data

How the results depend on the processing

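Of 60 member comparisons 30 were called, and 10 of these calls held under all alternatives run: Mmp3 and Mmp10 against shp53 in all 3 groups with RASV12, Mmp9 against shp53 in both groups with 2 vectors, Mmp13 in RASV12 against shp53 and Mmp9 in shp53-first against RASV12 cells. The authors' log2 table, a trended and robust spread and the fit without the arrays that stand apart kept all 30, and no scaling turned the sign of a called value. Quantile scaling, the probe mean, fits of 2 groups and the replicate block each kept 29, median scaling and normexp with extreme local backgrounds replaced 28, no filter 26, the closest arrays averaged 13 and normexp 12. The filter on all arrays removed Mmp12 and kept the other 29.

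With normexp, run on the median pixel intensity because the mean was not in the files, the members called were 3 in RASV12, shp53-first and RASV12-first against shp53, 1 in RASV12-first against RASV12 and 2 in shp53-first against RASV12 cells. In the same order 3.01%, 2.65%, 2.42%, 5.69% and 1.34% of all genes were called. With the closest arrays averaged the members called were 4 in RASV12, 3 in shp53-first and 4 in RASV12-first against shp53. In the same order 7.14%, 11.8% and 17.2% of all genes were called. Against RASV12 cells 1 member was called in RASV12-first and 1 in shp53-first, where 10.3% and 2.72% of all genes were. Without the arrays that stand apart the members called were 10 in RASV12 against shp53, 8 in RASV12-first against RASV12 and 6 between the orders, beside 58.5%, 66.8% and 48% of all genes. Between the orders median scaling gave 2, beside 19.8% of all genes. A trended and robust spread and the replicate block in a fit of the 2 orders alone gave 1 each, beside 16.2% and 17.3%. The fit without those arrays also turned 3 values that had not been called: Mmp19 in RASV12 against shp53 (-0.23), Mmp13 in shp53-first against shp53 (-0.99) and Mmp10 in RASV12-first against RASV12 cells (-0.39). Except for these fits' own loss of arrays, the cause was not tested. Leaving out 1 array gave 6 to 6 called members in RASV12, 6 to 7 in shp53-first and 5 to 6 in RASV12-first against shp53. Against RASV12 it gave 4 to 5 in RASV12-first and 3 to 4 in shp53-first cells, and 0 to 1 between the orders. Against shp53 the share of all genes was 18.8% to 26.7%, 26.3% to 39.8% and 34.4% to 51.2%. Against RASV12 it was 28.8% to 43.5% and 14.8% to 26.2%, and between the orders 10.3% to 19.4%. Where an arm then holds few arrays, the fit pools the spread of all groups.

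Over all groups same-numbered arrays had r from -0.34 to 0.6 in 18 pairs, and arrays of other numbers -0.55 to 0.49 in 36. By the file headers, same-numbered arrays of all groups share a slide and a scan date. With the replicate block in a fit of all 12 arrays the members called were 6, 6 and 7 in RASV12, shp53-first and RASV12-first against shp53, 6 and 5 in RASV12-first and shp53-first against RASV12, and 0 between the orders. In the same order 27.2%, 38.4%, 46.2%, 39.5%, 25.9% and 15.7% of all genes were called. Median scaling put the median of all genes at 0.25 between the orders, 0.19 in RASV12-first against RASV12 and 0.36 in RASV12-first against shp53 cells, and the share of called genes that were higher moved there from 46.4% to 68.5%, from 44.2% to 63.6% and from 47.7% to 68.6%. Signal over background limits Mmp12, Mmp8, Mmp1a and Mmp1b, and 3 arrays in each group limit all genes. Against shp53 cells Mmp9 differed by 4.13, 7.91 and 6.93 in RASV12, shp53-first and RASV12-first cells, but by 0.79, 4.17 and 2.85 with normexp.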
